A study of Mus musculus with 10 samples.

Results

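The collagen genes of the mouse are described here in dorsal root ganglia, the clusters of sensory neuron cell bodies and glia beside the spinal cord, after long treatment with oxaliplatin. The members are the protein-coding genes of the deposited count table whose symbol is Col, a type number, the letter a and a chain number, taken once per Ensembl ID. This gave 44 genes of 40481 in the table, 11 for fibrillar chains, 9 for chains of basement membranes and 24 for other collagens. Of the 44, 39 had enough counts to be tested, among 18401 tested genes in all.

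Collagens are the main structural proteins of connective tissue. Their chains share a repeat in which glycine recurs at a spacing of 3 residues, and 3 chains wind around each other into a triple helix. Fibrillar collagens such as types I and III build the cables of the nerve and ganglion sheaths, type IV forms the sheet at the core of every basement membrane, including that around vessels and Schwann cells, and type VI forms beaded filaments close to cells. In peripheral nerve, fibroblasts make much of the fibrillar collagen, while Schwann, perineurial and vascular cells contribute to the basement membranes.

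The series compares 5 libraries of dorsal root ganglia from C57BL/6 mice given oxaliplatin, a platinum drug against colorectal cancer that injures sensory nerves, at 10 mg/kg over 8 weeks, with 5 libraries from C57BL/6 mice given vehicle. The sources used here give neither the dosing schedule nor the age of the mice, and they do not say that each library came from a separate animal. Total RNA was sequenced, so the values are averages over all cells of the ganglion and its sheath. In such bulk samples, fewer cells of a type and less RNA per cell cannot be told apart.

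Library totals ran between 52963470 and 60984426 counts. Markers of the labelled tissue were abundant: 10 sensory neuron markers summed to 21588 to 25839 CPM (counts scaled to library size) after oxaliplatin and 25584 to 29899.5 CPM after vehicle, and 8 Schwann cell markers to 8816 to 11757 CPM after oxaliplatin and 8107 to 10814 CPM after vehicle. Oxaliplatin replicate 1 stood apart in markers of fat: its 7 adipocyte markers summed to 1028 CPM, against 23.4 to 70.3 CPM in the other oxaliplatin libraries and 24.5 to 69.8 CPM in the vehicle libraries. Its 6 skeletal muscle markers summed to 722 CPM, against 9.60 to 24.1 CPM in the other oxaliplatin libraries and 96.8 to 478 CPM in the vehicle libraries. For muscle, every vehicle library was thus above the other oxaliplatin libraries.

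The repeat that defines the family can be read in the coding sequences of the 44 members in GENCODE M21. Counting codons that start with GG, which all encode glycine, at a spacing of 3 codons, the longest unbroken run was 216 to 344 repeats in the 11 fibrillar chains (median 338), 30 to 75 in the 9 basement membrane chains (median 42) and 23 to 113 in the 24 other chains (median 48.5). Col1a1 had a run of 338, Col3a1 of 344, Col6a1 and Col6a2 of 87 each, Col6a3 of 45 and Col4a1 of 40. The stretches below show this difference for 3 chains that the results turn on, with the glycine codons of the repeat in capitals: codons 168 to 191 of Col1a1 (chromosome 11) and 256 to 279 of Col6a1 (chromosome 10) lie inside an unbroken run, and codons 323 to 352 of Col4a1 (chromosome 8) cross one of the breaks that are typical of type IV.
Col1a1: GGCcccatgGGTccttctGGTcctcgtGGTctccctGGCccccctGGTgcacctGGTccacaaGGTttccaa
Col6a1: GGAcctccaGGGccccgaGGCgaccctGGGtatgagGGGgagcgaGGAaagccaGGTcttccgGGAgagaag
Col4a1: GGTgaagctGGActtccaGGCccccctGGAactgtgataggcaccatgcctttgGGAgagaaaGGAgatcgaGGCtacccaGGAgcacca
In the Col4a1 stretch the regular spacing of the capitals stops and then starts again, whereas it holds from end to end in Col1a1 and Col6a1.

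Per kilobase of transcript, the type I and III chains had the highest levels of the family. Col1a2 averaged 21.8 CPM per kb after oxaliplatin and 23.3 after vehicle, Col1a1 9.60 and 10.7, and Col3a1 7.32 and 7.58. Col28a1, which codes for a collagen described in peripheral nerve, came next at 6.67 CPM per kb after oxaliplatin and 7.05 after vehicle, followed by the type VI chain Col6a1 at 5.79 and 3.77. Summed over the 11 fibrillar genes, the level was 29.8, 73.5, 48.3, 39.5 and 46.5 CPM per kb in oxaliplatin replicates 1 to 5, against 48.0, 52.8, 43.8, 48.1 and 56.0 in vehicle replicates 1 to 5. The highest and the lowest sums were both in oxaliplatin libraries, replicates 2 and 1.

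No collagen gene passed the test between oxaliplatin and vehicle. Of the 39 tested members, 0 were higher and 0 lower at an adjusted p below 0.05 in edgeR's quasi-likelihood test with Benjamini-Hochberg adjustment over all genes, where 234 of 18401 genes (1.27%) were higher and 142 (0.772%) lower. At an unadjusted p below 0.05, 7 members were higher and 1 lower, or 20.5% of the 39, against 16.3% of all tested genes. DESeq2 called 3 members higher (Col6a1, Col6a2 and Col4a2), where it called 5.46% of its genes in either direction, and limma voom with sample quality weights called 2 (Col4a2 and Col4a4), where it called 4.37%. An edgeR fit with no composition factor called 1 (Col6a1; 2.18% of all genes), and one with the replicate number as a block called 2 (Col6a1 and Col6a2; 3.59%). The log2 fold changes of the members, oxaliplatin over vehicle, had a median of 0.03 and ran between -0.61 and 0.81, and the median over all tested genes was 0.01. In 0 of the 39 members did the groups' levels stand clear of each other, as they did in 4.02% of all tested genes.

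**Figure D1:**
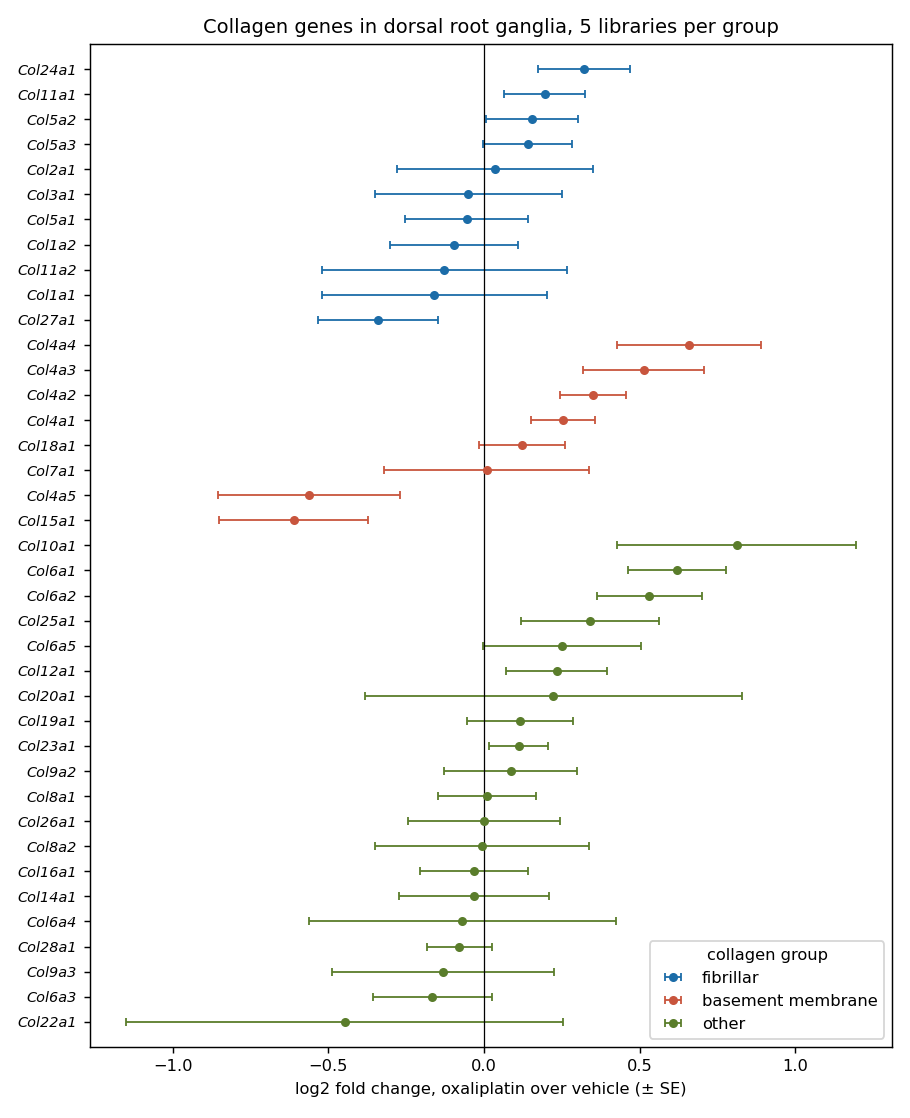
Log2 fold change of each of the 39 tested collagen genes, oxaliplatin over vehicle, with points for the edgeR estimate and bars for its SE (5 libraries per group), coloured by collagen group. The fibrillar chains lie around 0, while Col4a1 to Col4a4, Col6a1 and Col6a2 lie above it and Col15a1, at -0.61, and Col4a5 below it; none passed an adjusted p of 0.05.

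The fibrillar chains had similar means in the groups and a wide spread among the oxaliplatin libraries. Their median log2 fold change was -0.05 over 11 genes. At an unadjusted p below 0.05 in edgeR's test there was 1 of them, Col24a1, or 9.09%, against 16.3% of all tested genes. Col1a1 (ENSMUSG00000001506), the major chain of type I collagen, had 22.1, 105, 57.5, 42.8 and 57.4 CPM in oxaliplatin replicates 1 to 5, against 59.9, 74.1, 52.7, 57.9 and 73.4 CPM in vehicle replicates 1 to 5. Both extremes were oxaliplatin libraries, and the vehicle libraries lay between them. The log2 fold change was -0.16 ± 0.36 (SE), with an adjusted p of 0.885 in edgeR's quasi-likelihood test. Col1a2 (ENSMUSG00000029661), the partner chain of type I, had 73.3, 180, 116, 98.0 and 114 CPM after oxaliplatin, against 123, 128, 115, 120 and 137 CPM after vehicle, a log2 fold change of -0.10 ± 0.20 (SE). Col3a1 (ENSMUSG00000026043), which forms fibrils together with type I in pliable tissue, had 20.8, 71.4, 42.2, 31.2 and 38.1 CPM after oxaliplatin, against 40.2, 52.0, 34.6, 38.4 and 45.8 CPM after vehicle, a log2 fold change of -0.05 ± 0.30 (SE). In all 3 genes replicate 2 was the highest oxaliplatin library and replicate 1 the lowest. The sign of all 3 fold changes turned when oxaliplatin replicate 1 was left out, to 0.048 for Col1a1, 0.034 for Col1a2 and 0.12 for Col3a1, and none passed the test there.

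**Figure D2:**
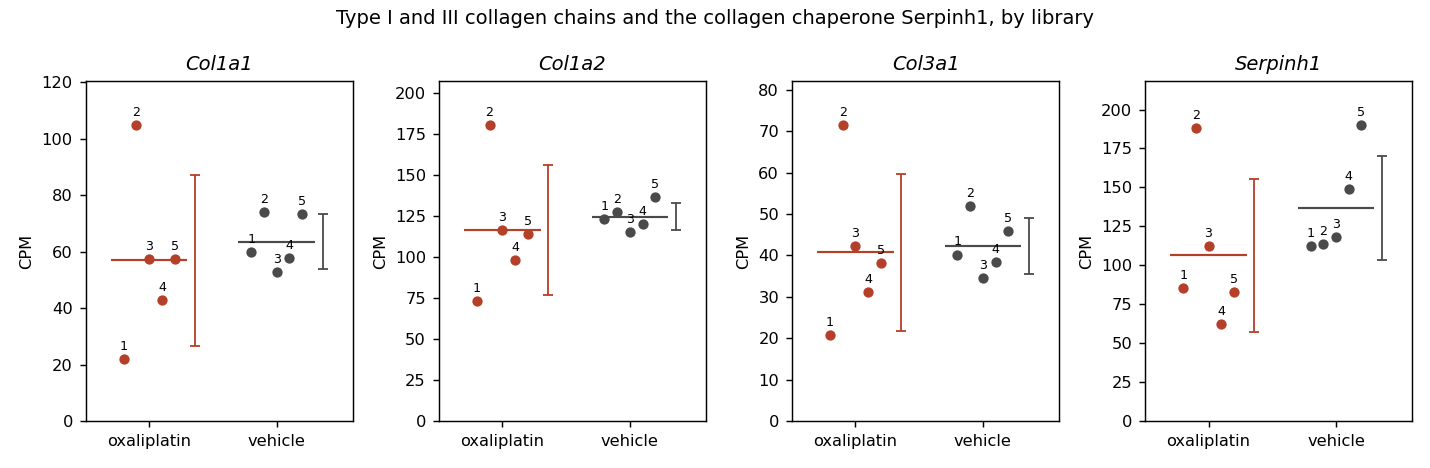
Levels in CPM of Col1a1, Col1a2, Col3a1 and the collagen chaperone Serpinh1 in each library, with the replicate number above each point, a line at the group mean and a bar of 1 SD on either side (n = 5 per group). Oxaliplatin replicate 2 is the highest oxaliplatin library in every panel, and replicate 1, at 22.1 CPM for Col1a1, is the lowest for the 3 collagens.

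The chains that join type I and III fibrils in smaller amounts also had overlapping groups. Col5a2 (ENSMUSG00000026042) and Col5a3 (ENSMUSG00000004098), chains of type V, which sets the width of fibrils, had log2 fold changes of 0.15 ± 0.15 and 0.14 ± 0.14 (SE, edgeR). Col5a2 lay between 11.3 and 18.2 CPM after oxaliplatin and between 10.6 and 16.7 CPM after vehicle, and Col5a3 between 16.7 and 19.0 CPM and between 11.7 and 23.6 CPM. Col24a1, chosen for mention after its values were seen, codes for a fibrillar chain and had the shortest glycine run of the group, 216. It had 8.49, 6.53, 8.58, 6.75 and 6.34 CPM after oxaliplatin, against 5.44, 6.60, 4.90, 7.44 and 4.97 CPM after vehicle. Oxaliplatin replicates 1 and 3 were above every vehicle library and the other 3 were not, and the adjusted p was 0.290 in edgeR's test. The remaining fibrillar genes, Col2a1, Col5a1, Col11a1, Col11a2 and Col27a1, had log2 fold changes between -0.34 and 0.19, the lowest being that of Col27a1.

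The type I and III chains varied more among the oxaliplatin libraries than among the vehicle libraries. The highest oxaliplatin library was 4.75-fold above the lowest for Col1a1, 3.44-fold for Col3a1 and 2.46-fold for Col1a2, against 1.41-fold, 1.5-fold and 1.19-fold among the vehicle libraries. Without oxaliplatin replicate 1 the values were 2.45-fold for Col1a1, 2.29-fold for Col3a1 and 1.84-fold for Col1a2, and without oxaliplatin replicate 2 they were 2.60-fold, 2.03-fold and 1.59-fold. Over the 39 tested members the median SD of log2 CPM was 0.342 after oxaliplatin and 0.285 after vehicle, against 0.192 and 0.213 over all tested genes. The SD was wider after oxaliplatin in 23 of 39 members (59.0%), against 41.7% of all tested genes, and in 18 (46.2%) without oxaliplatin replicate 1, against 41.4%. Oxaliplatin replicate 2 was the highest of its group and replicate 1 the lowest in 12 members (30.8%), against 5.40% of all tested genes. These were Col1a1, Col1a2, Col2a1, Col3a1, Col5a2, Col6a2, Col6a3, Col12a1, Col14a1, Col15a1, Col16a1 and Col26a1. Among the vehicle libraries, replicate 5 was the highest in 19 members (48.7%; 23.4% of all tested genes) and replicate 3 the lowest in 16 (41.0%; 22.1%). These shares are descriptions of the libraries, without a test. Oxaliplatin replicate 1 also had the highest sums of adipocyte and muscle markers. The muscle markers were not particular to it: all vehicle libraries, at 96.8 to 478 CPM, were above the other oxaliplatin libraries, at 9.60 to 24.1 CPM. The part of those tissues in the low collagen levels of oxaliplatin replicate 1 was not tested.

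**Figure D3:**
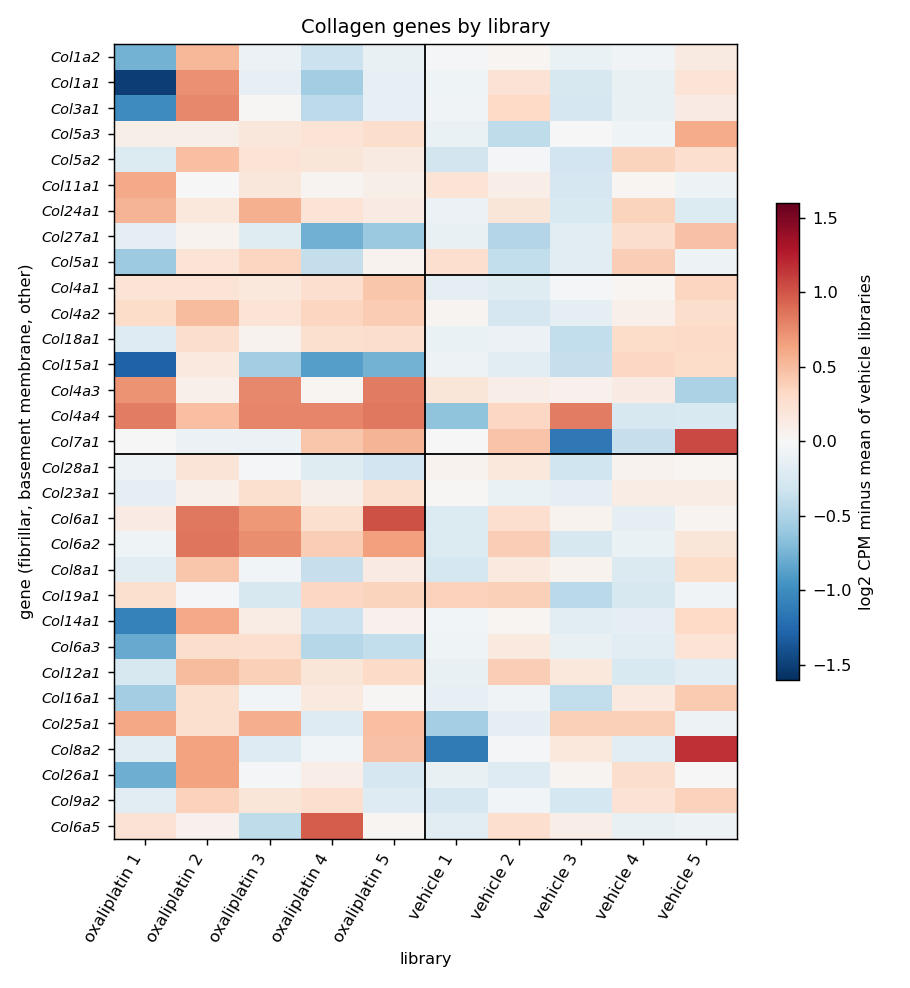
Log2 CPM of the 31 collagen genes with a mean of at least 1 CPM in each of the 10 libraries, minus the mean of the vehicle libraries, with red for higher and blue for lower and horizontal lines between the fibrillar, basement membrane and other groups. The scale runs between -1.51 and 1.17 in the values shown; oxaliplatin replicate 1 is blue for types I, III, XIV and XV, replicate 2 is red for many genes, and Col6a1, Col6a2 and the type IV chains are red in most oxaliplatin libraries.

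The type IV chains of the basement membrane had higher means after oxaliplatin in 4 of the 5 tested genes, without passing the test. Over the 8 tested basement membrane genes the median log2 fold change was 0.19. At an unadjusted p below 0.05 in edgeR's test, Col4a1, Col4a2, Col4a3 and Col4a4 were higher and Col15a1 lower. These made up 62.5% of the 8, against 16.3% of all tested genes. Col4a2 (ENSMUSG00000031503) had 15.2, 17.7, 14.5, 15.8 and 16.5 CPM in oxaliplatin replicates 1 to 5, against 12.8, 10.3, 11.2, 13.1 and 15.1 CPM in vehicle replicates 1 to 5. Only vehicle replicate 5 reached into the range of the oxaliplatin libraries, 4 of which were above every vehicle library. The log2 fold change was 0.35 ± 0.11 (SE), with an adjusted p of 0.106 in edgeR's quasi-likelihood test and of 0.0478 when vehicle replicate 5, the overlapping library, was left out, a fit that called 1.53% of all genes. This was 1 of 10 fits with a library left out; in the others Col4a2 was not called, with an adjusted p of up to 0.231. Its partner Col4a1 (ENSMUSG00000031502), which joins it in the commonest type IV helix, had 23.4, 23.5, 22.6, 24.3 and 27.5 CPM after oxaliplatin, against 18.1, 17.6, 19.8, 20.5 and 25.6 CPM after vehicle. Again vehicle replicate 5 alone overlapped the oxaliplatin libraries, and the log2 fold change was 0.25 ± 0.10 (SE; adjusted p = 0.223, edgeR). Per kilobase, Col4a1 was 1.29 to 1.63 times Col4a2 after oxaliplatin and 1.38 to 1.72 times after vehicle.

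Col4a3 (ENSMUSG00000079465) and Col4a4 code for chains that form a separate type IV helix with the product of Col4a5, best known from the kidney. Col4a4 was named after its values were seen. Col4a3 had 4.84, 3.09, 5.01, 2.99 and 5.21 CPM after oxaliplatin, against 3.35, 3.14, 3.07, 3.20 and 2.05 CPM after vehicle, so that oxaliplatin replicates 1, 3 and 5 were above every vehicle library and replicates 2 and 4 were not. Col4a4 had 4.06, 3.21, 3.95, 3.96 and 4.12 CPM after oxaliplatin, against 1.45, 2.88, 4.08, 1.90 and 1.92 CPM after vehicle. The oxaliplatin libraries were close together, and vehicle replicate 3 was at their level while the other 4 vehicle libraries were below them. The log2 fold changes were 0.51 ± 0.20 for Col4a3 and 0.66 ± 0.23 for Col4a4 (SE; adjusted p = 0.194 and 0.159, edgeR), and without vehicle replicate 3 the value of Col4a4 was 0.93 with an adjusted p of 0.0318, in a fit that called 1.80% of all genes. Vehicle replicate 3 is the overlapping library, and in the other fits with a library left out Col4a4 was not called, with values down to 0.52 and an adjusted p of up to 0.334. Col4a5 was lower in mean after oxaliplatin, at 0.5 to 0.743 CPM, against 0.524 to 1.45 CPM after vehicle (log2 fold change -0.56 ± 0.29 SE, adjusted p = 0.357, edgeR). Col4a6 was not tested, since no oxaliplatin library had more than 12 counts of it and no vehicle library more than 9.

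Col15a1 (ENSMUSG00000028339), a collagen at the outer face of basement membranes, was lower in mean after oxaliplatin. It had 3.92, 10.8, 6.53, 5.20 and 5.71 CPM in oxaliplatin replicates 1 to 5, against 9.11, 8.55, 7.45, 12.2 and 11.8 CPM in vehicle replicates 1 to 5. Oxaliplatin replicates 1, 3, 4 and 5 were below every vehicle library, and replicate 2 lay among the vehicle libraries. The log2 fold change was -0.61 ± 0.24 (SE), with an adjusted p of 0.229 in edgeR's quasi-likelihood test. Without oxaliplatin replicate 2, Col15a1 passed the test at -0.88 with an adjusted p of 0.0138, in a fit that called 3.18% of all genes. That library is the one among the vehicle levels, and in the other 9 fits with a library left out Col15a1 was not called, with an adjusted p of up to 0.423. Without oxaliplatin replicate 1 it was at -0.48 with an adjusted p of 0.373. Without both replicates 1 and 2 it passed at -0.76 with an adjusted p of 0.048 (1.44% of all genes called), as did Col6a1 at 0.68 (adjusted p = 0.0481). Col18a1 (ENSMUSG00000001435), the closest relative of Col15a1 and the source of endostatin, had 10.8 to 15.3 CPM after oxaliplatin and 9.58 to 15.5 CPM after vehicle, a log2 fold change of 0.12 ± 0.14 (SE). Col7a1, the anchoring fibril collagen, had a log2 fold change of 0.01.

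Among the other 24 collagens, the lowest adjusted p-values were those of the type VI chains Col6a1 and Col6a2. Col6a1 (ENSMUSG00000001119) had 16.9, 27.5, 24.9, 18.4 and 31.0 CPM in oxaliplatin replicates 1 to 5, against 13.2, 18.5, 16.0, 13.7 and 15.8 CPM in vehicle replicates 1 to 5. Oxaliplatin replicates 2, 3 and 5 were above every vehicle library, and replicates 1 and 4 were below vehicle replicate 2 alone. The log2 fold change was 0.62 ± 0.16 (SE), with an adjusted p of 0.0602 in edgeR's quasi-likelihood test and of 0.00428 in DESeq2. Col6a2 (ENSMUSG00000020241), whose product joins that of Col6a1 in the same monomer, had 8.54, 16.2, 15.0, 11.8 and 14.1 CPM after oxaliplatin, against 7.70, 11.7, 7.47, 8.31 and 10.2 CPM after vehicle. All oxaliplatin libraries but replicate 1 were above every vehicle library. The log2 fold change was 0.53 ± 0.17 (SE), with an adjusted p of 0.127 in edgeR's test and of 0.0422 in DESeq2. Without oxaliplatin replicate 1 both genes passed edgeR's test, Col6a1 at 0.72 (adjusted p = 0.029) and Col6a2 at 0.65 (adjusted p = 0.0448), where 1.18% of all genes were called. Neither was called in any other of the 10 fits with a library left out, in which the values went down to 0.50 for Col6a1 (adjusted p up to 0.171) and 0.44 for Col6a2 (adjusted p up to 0.286).

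Col6a3 (ENSMUSG00000048126), named after its values were seen, codes for the third and largest chain of the type VI monomer and was not higher in mean after oxaliplatin. It had 3.75, 8.00, 7.93, 4.80 and 4.99 CPM after oxaliplatin, against 6.26, 7.33, 6.04, 5.80 and 7.66 CPM after vehicle, a log2 fold change of -0.17 ± 0.19 (SE; adjusted p = 0.731, edgeR). Oxaliplatin replicates 2 and 3 were above every vehicle library and replicates 1, 4 and 5 below every one. Per kilobase, the ratio of Col6a3 to Col6a1 was 0.0903, 0.118, 0.129, 0.106 and 0.0652 in oxaliplatin replicates 1 to 5, against 0.192, 0.161, 0.153, 0.171 and 0.196 in vehicle replicates 1 to 5. All 5 ratios after oxaliplatin were below all 5 after vehicle. This ratio was chosen after the values were seen and was given no test. The ratio of Col6a1 to Col6a2 overlapped, at 1.5 to 2.12 after oxaliplatin and 1.49 to 2.06 after vehicle. Within fibrillar collagen, Col1a1 over Col1a2 was 0.272 to 0.524 after oxaliplatin and 0.412 to 0.524 after vehicle, with oxaliplatin replicate 1 the lowest and the other 4 at 0.394 or above.

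**Figure D4:**
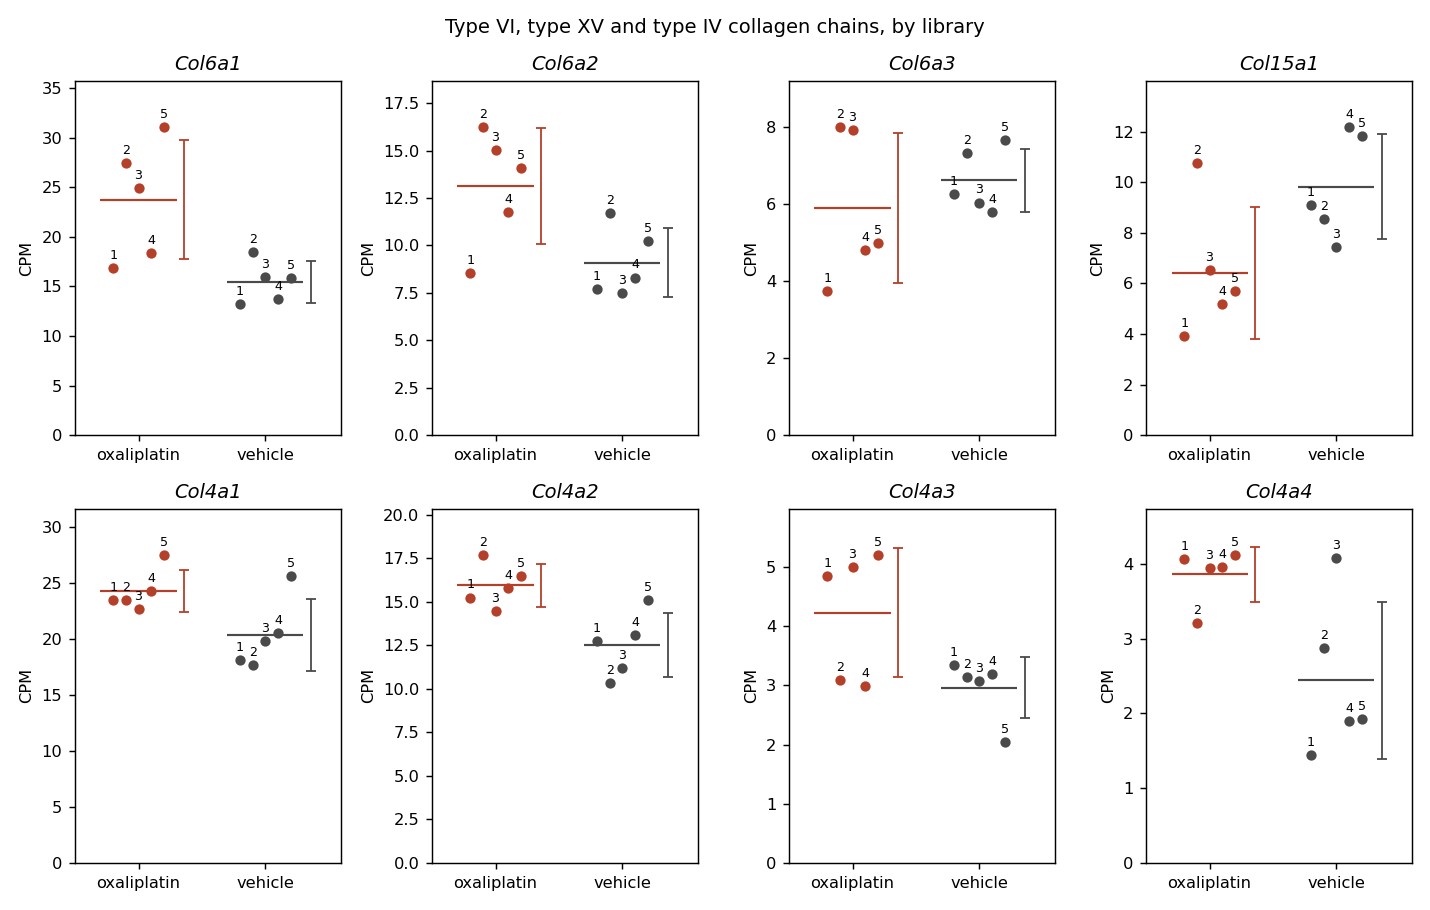
Levels in CPM of the type VI chains Col6a1, Col6a2 and Col6a3, of Col15a1 and of the type IV chains Col4a1 to Col4a4 in each library, with replicate numbers, a line at the group mean and a bar of 1 SD on either side (n = 5 per group). Col6a1 and Col6a2 are higher in mean after oxaliplatin while Col6a3 is not, Col15a1 is below the vehicle libraries in all oxaliplatin libraries but replicate 2, and vehicle replicate 5 alone overlaps the oxaliplatin libraries for Col4a1 and Col4a2.

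**Figure D5:**
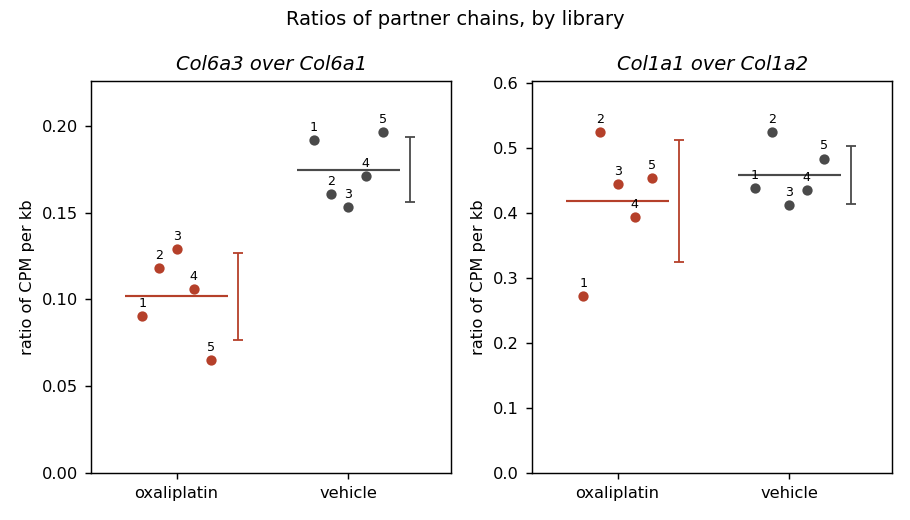
Ratio of partner chains in CPM per kb in each library, with replicate numbers, a line at the group mean and a bar of 1 SD on either side (n = 5 per group), for Col6a3 over Col6a1 and Col1a1 over Col1a2. For Col6a3 over Col6a1 the oxaliplatin libraries lie between 0.0652 and 0.129 and the vehicle libraries between 0.153 and 0.196, and for Col1a1 over Col1a2 the groups overlap.

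Col6a1 and Col6a2 are neighbours on the same strand of chromosome 10, whereas Col6a3 is on chromosome 1, and the pairs Col4a1 with Col4a2 and Col4a4 with Col4a3 lie head to head. Each of these pairs, Col6a1 with Col6a2, Col4a1 with Col4a2 and Col4a4 with Col4a3, had fold changes of one sign. As an example, the sequence upstream of Col6a1, Col6a2 and Col4a4 is shown, from RefSeq on build GRCm38.p6, on the strand of the named gene. The windows, cut to the bases outside every GENCODE M21 gene, are 126 bases before Col6a1 (chr10:76726169-76726294, minus strand), 250 bases before Col6a2 (chr10:76623631-76623880, minus strand) and the 71 bases between Col4a4 and Col4a3 (chr1:82586850-82586920, minus strand), and capitals mark the match to a searched motif.
Col6a1: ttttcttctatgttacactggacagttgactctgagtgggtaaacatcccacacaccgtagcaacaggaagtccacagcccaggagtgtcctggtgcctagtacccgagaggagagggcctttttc
Col6a2: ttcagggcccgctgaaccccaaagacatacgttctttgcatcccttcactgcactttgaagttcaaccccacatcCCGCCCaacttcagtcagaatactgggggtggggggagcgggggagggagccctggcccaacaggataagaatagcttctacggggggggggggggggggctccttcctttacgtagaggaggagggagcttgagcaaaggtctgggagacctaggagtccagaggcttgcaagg
Col4a4: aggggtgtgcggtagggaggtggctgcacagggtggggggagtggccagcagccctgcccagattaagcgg
The motifs searched on both strands were the CCAAT box (CCAAT), the TATA box (TATAAA) and the GC box (GGGCGG). The Col6a2 window held 1 GC box, on the opposite strand, and the other windows held 0 matches to any of the 3, so that no matches overlapped. Of 32851 upstream windows of the length of the Col6a2 window, 32.7% held at least 1 GC box on either strand. For motifs with 0 matches, such shares were 6.26% to 16.9% at the Col6a1 window and 4.41% to 20.7% at the Col4a4 window. At the Col6a2 window they were 12.4% for the TATA box and 33.8% for the CCAAT box. Thus 0 matches to a given motif was the commoner outcome throughout. A match is a description of the letters and does not show that a factor binds.

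The remaining other collagens had smaller or less certain differences. Col28a1 (ENSMUSG00000068794) had 23.9 to 34.1 CPM after oxaliplatin and 23.8 to 33.2 CPM after vehicle, a log2 fold change of -0.08 ± 0.10 (SE). Col23a1 (ENSMUSG00000063564), a transmembrane collagen, had 20.3 to 27.1 CPM after oxaliplatin and 20.5 to 24.5 CPM after vehicle, and Col8a1 (ENSMUSG00000068196), a short-chain collagen of vessels, had 5.68 to 10.0 CPM and 6.06 to 9.04 CPM. Their log2 fold changes were 0.11 ± 0.09 and 0.01 ± 0.16 (SE, edgeR), and the sign of the value for Col8a1 depended on the libraries used. The 8 tested fibril-associated collagens, among them Col12a1 and Col14a1, had log2 fold changes between -0.45 and 0.23 with a median of 0.03. Col10a1, the collagen of hypertrophic cartilage, had the highest value of the family, 0.81 ± 0.38 (SE; adjusted p = 0.307, edgeR), at a level of only 0.308 to 0.718 CPM after oxaliplatin and 0.199 to 0.410 CPM after vehicle. Col9a1, Col6a6, Col13a1 and Col17a1 had at most 35 counts in any oxaliplatin library and at most 22 in any vehicle library and were not tested.

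The genes that make, cut, break down and bind collagen were counted in the same fit: 70 of 72 listed genes were tested, 2 were higher and 1 lower, where 2.04% of all tested genes were called in either direction. In 5 of the 70 all oxaliplatin libraries were above all vehicle libraries, and in 1 all were below. Among all tested genes 4.02% had groups without overlap in either direction. The 22 genes of chain modification, folding and export had 0 calls in either direction. Among them Serpinh1, the chaperone of the collagen triple helix, had 85.3, 188, 113, 62.5 and 82.8 CPM after oxaliplatin, against 112, 114, 118, 149 and 190 CPM after vehicle (log2 fold change -0.36 ± 0.31 SE, adjusted p = 0.634, edgeR). Oxaliplatin replicates 1, 4 and 5 were below every vehicle library, and replicate 2 was close to the highest vehicle library. P4hb, a subunit of prolyl 4-hydroxylase, had a log2 fold change of 0.01 ± 0.06 (SE).

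Among the 8 genes of propeptide cleavage, which trims procollagen before fibrils form, 1 was higher and 1 lower. Of all tested genes 1.27% were higher and 0.772% lower. Adamts2, the protease that removes the N-terminal propeptide of types I to III, had 7.22, 9.96, 8.36, 7.62 and 8.24 CPM in oxaliplatin replicates 1 to 5, against 5.23, 6.62, 5.77, 4.15 and 4.06 CPM in vehicle replicates 1 to 5. Each of the 5 oxaliplatin libraries was above the highest vehicle library, with a log2 fold change of 0.68 ± 0.15 (SE) and an adjusted p of 0.0260 in edgeR's quasi-likelihood test. Pcolce2, which enhances removal of the C-terminal propeptide, had 29.7, 28.4, 32.7, 29.1 and 25.8 CPM after oxaliplatin, against 37.3, 32.8, 36.9, 42.5 and 48.3 CPM after vehicle. It fell by 0.44 ± 0.10 (SE) on the log2 scale, with an adjusted p of 0.0293 in edgeR's test and no overlap between the groups. Both calls were close to the threshold. Adamts2 missed it without oxaliplatin replicate 4 or 5 (adjusted p = 0.0594 and 0.0729) or without vehicle replicate 1, 4 or 5 (0.0562, 0.082 and 0.0513), and Pcolce2 without oxaliplatin replicate 1, 4 or 5 (0.0635, 0.0804 and 0.102) or without vehicle replicate 1, 4 or 5 (0.0503, 0.0942 and 0.0537).

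The 11 tested genes of collagen breakdown and uptake, the 8 tested receptors and the 15 other basement membrane genes had 0 calls each. Timp3, a matrix-bound inhibitor of metalloproteinases, had 240 to 303 CPM after oxaliplatin and 210 to 259 CPM after vehicle (log2 fold change 0.22 ± 0.07 SE, adjusted p = 0.128, edgeR), and the value for its relative Timp2 was -0.03 ± 0.07 (SE). Timp4, named after its values were seen, had 14.5, 3.18, 4.34, 3.76 and 4.87 CPM after oxaliplatin, against 0.976, 1.83, 0.930, 2.02 and 1.90 CPM after vehicle, all 5 above all 5, with an adjusted p of 0.0662 in edgeR's test. Oxaliplatin replicate 1, the library rich in adipocyte transcripts, was the highest, and the adjusted p was 0.0202 without it and 0.0398 without oxaliplatin replicate 2. Those were the 2 of 10 fits with a library left out that called Timp4, and in the others its adjusted p was up to 0.141. Timp1, of the same family, was lower in mean, with a log2 fold change of -0.93 ± 0.35 (SE, adjusted p = 0.216, edgeR). Among receptors, Itgb1 and Ddr1 had log2 fold changes of -0.02 ± 0.06 and 0.09 ± 0.11 (SE). Of the laminins and nidogens, which share the basement membrane with type IV collagen, Lamb1 and Nid1 had values of 0.16 ± 0.08 and -0.08 ± 0.11 (SE). Lamb2, named after its values were seen, had 22.2, 22.1, 22.4, 24.6 and 31.5 CPM after oxaliplatin, against 15.6, 21, 11.8, 18.2 and 19.0 CPM after vehicle, with an adjusted p of 0.0785 in edgeR's test. It was called in 0 of 10 fits with a library left out, with an adjusted p of up to 0.204.

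Of the 6 genes for TGF-beta ligands and receptors, a pathway known to drive collagen transcription, 1 was higher and 0 lower. Over all tested genes the shares were 1.27% and 0.772%. The log2 fold changes of the 6 genes had a median of -0.09, with 3 above 0 and 3 below. The ligands Tgfb2 and Tgfb3 were lower in mean, at -0.32 ± 0.11 and -0.24 ± 0.08 (SE, adjusted p = 0.149 and 0.121, edgeR). The receptor Tgfbr3 was higher in mean, at 0.20 ± 0.07 (SE, adjusted p = 0.193, edgeR). Tgfbr2 had 18.7, 13.2, 18.5, 17.9 and 20.2 CPM in oxaliplatin replicates 1 to 5, against 12.6, 13.4, 13.0, 12.9 and 13.4 CPM in vehicle replicates 1 to 5. Oxaliplatin replicate 2 was at the level of the vehicle libraries and the other 4 were above them. It rose by 0.44 ± 0.10 (SE) on the log2 scale, with an adjusted p of 0.0391 in edgeR's quasi-likelihood test. The adjusted p was 0.0038 without oxaliplatin replicate 2. It was above the threshold without oxaliplatin replicate 1, 3, 4 or 5 (0.0961, 0.0722, 0.0935 and 0.124) and without vehicle replicate 1, 2, 3, 4 or 5 (0.0873, 0.0547, 0.063, 0.107 and 0.0588).

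Some markers of cells that can make collagen passed the test at an adjusted p below 0.05, and most did not. Over all tested genes 1.27% were higher and 0.772% lower. Fibroblast markers summed to 1825 to 2407 CPM after oxaliplatin and 1357 to 1767 CPM after vehicle, with 2 of 10 genes higher by edgeR's test, Gsn and Pdgfra. With each library left out in turn, Gsn was called in 4 and Pdgfra in 3 of 10 fits. Perineurial markers summed to 165 to 220 CPM and 134 to 173 CPM (2 of 6 higher), pericyte and smooth muscle markers to 204 to 289 CPM and 166 to 194 CPM (2 of 8 higher), and endothelial markers to 115 to 136 CPM and 97.7 to 134 CPM (2 of 8 higher). Of these, Kcnj8 was called in 10 of 10 such fits, Pecam1 in 9, Perp in 7, Abcc9 in 6, Cdh5 in 3 and Itgb4 in 1. Of the Schwann cell markers 0 of 8 were called. At an unadjusted p below 0.05 in edgeR's test, 16.3% of all tested genes differed in either direction. There, 7 of 10 fibroblast, 5 of 6 perineurial, 5 of 8 pericyte and smooth muscle and 3 of 8 endothelial markers were higher and 0 lower. Their median log2 fold changes were 0.51, 0.50, 0.87 and 0.11, against 0.01 over all tested genes. For Schwann cells 2 of 8 markers were higher and 0 lower, with a median of 0.11. In other cell types, 3 of 10 sensory neuron markers were lower at an adjusted p below 0.05 in edgeR's test (Nefl, Nefm and Nefh). So were Fabp7 among 6 satellite glia markers and Cx3cr1 among 8 macrophage markers. With each library left out in turn, Nefl and Nefm were called in 10 of 10 fits, Cx3cr1 in 8, and Nefh and Fabp7 in 3 each. Meningeal markers varied widely, at 134 to 1388 CPM after oxaliplatin and 39.9 to 349 CPM after vehicle, with 0 of 6 called. Cartilage markers summed to 51.7 to 82.7 CPM after oxaliplatin and 68.5 to 83.9 CPM after vehicle, and bone markers to 13.8 to 24.8 CPM and 21.5 to 28.7 CPM, with 0 calls among the 4 tested genes of each. In none of these lists was a marker at 0 in every library. The fibroblast sums after oxaliplatin were all above those after vehicle while the levels of the type I and III chains overlapped. Those sums, of 2123 and 1535 CPM in mean, came mostly from Gsn (1058 and 728 CPM) and Dcn (767 and 553 CPM). Of the 10 fibroblast markers 9 had a log2 fold change above 0 and 1, Lum, below it (56.4 CPM after oxaliplatin and 75.4 after vehicle). The part of these cell types in the collagen values was not tested.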

How the data were processed

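RNA sequencing of mouse dorsal root ganglia gave 10 libraries, 5 of oxaliplatin-treated and 5 of vehicle-treated mice by the labels' treatment field. The deposited table holds raw counts per Ensembl gene, which the authors made with tools listed in the submitters' processing notes as STAR 2.5.1a, Partek and DESeq2 with no role named, and with the genome build, annotation, counter and use of strand not given in the sources used here. Its 40757 rows hold 40481 IDs, and 276 extra rows with identical counts were dropped. Library totals were 52963470 to 60984426, and the common biological coefficient of variation was 19.3%. The labels do not say that the libraries are separate animals, so p-values reflect only how these samples vary, which may be technical. Every pair of libraries of one group differed by more than sampling noise, with a chi-square of 12.04 to 49.32 for each degree of freedom.

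Differences were tested with edgeR 4.0.16 (R 4.3.3): filterByExpr, TMM, robust quasi-likelihood fits on all 10 libraries without covariates, and Benjamini-Hochberg adjustment over 18401 genes at 0.05. Each SE was taken as log2 fold change over the square root of F. CPM uses TMM-scaled totals, log2 CPM a prior count of 2, and CPM per kb the length of the GENCODE M21 coding transcript with the longest coding sequence. On simulated counts for 18151 genes of this comparison, 50 genes were changed at each size. The test recovered 66% at 1.5-fold, 98% at 2-fold, 100% at 4-fold and 88% at 0.5-fold, with 4 false among 180 calls. Recovery was not worked out by level or for the collagens, and it may be lower for them. Their median SD of log2 CPM was 0.342 after oxaliplatin and 0.285 after vehicle, against 0.192 and 0.213 over all tested genes. Of the 39 tested members, 31 had a mean of at least 1 CPM.

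Alternatives were DESeq2 1.42.0, limma 3.58.1 voom with quality weights, edgeR with DESeq2's size factors or without composition factors, no filter or a filter of 1 CPM in 5 libraries, a replicate block, a threshold of 0.1, leaving out each library, and leaving out oxaliplatin replicate 1 with vehicle replicate 5. Leaving out oxaliplatin replicates 1 and 2 was chosen after seeing the data. The members, the 6 pathway lists and the 13 marker lists were chosen with earlier results of these data known. Genes named were the 5 collagens of highest mean CPM in each collagen group, any past the threshold, and in each pathway list those past the threshold or, if none, the 2 of highest mean CPM; other genes were named after their values were seen. Upstream sequences were matched by symbol to a RefSeq table (GRCm38.p6), which held 35 of the 44 members, and coding sequences to GENCODE M21, which held all 44.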

Additional observations from a re-analysis of the deposited data

Results flagged for a closer look

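Each group of 5 libraries was examined for a library whose gap to its nearest neighbour took up more than 0.71 of the group's range, both taken on the log2 scale. Of 88 groups examined 9 met this, and chance alone gives about 1 group in 20. Among the collagens, Col4a4 was low in oxaliplatin replicate 2, at 3.21 CPM, while the others of its group had 3.95 to 4.12 CPM (gap 0.828 of the range). Col4a3 was low in vehicle replicate 5, at 2.05 CPM, while the others had 3.07 to 3.35 CPM (0.828). Col28a1 was low in vehicle replicate 3, at 23.8 CPM against 30.3 to 33.2 CPM (0.729).

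The ratio of Col3a1 to Col1a1 per kilobase was 1 in oxaliplatin replicate 1 and 0.707 to 0.781 in the other oxaliplatin libraries (0.713 of the range). In the same library Timp4 was at 14.5 CPM against 3.18 to 4.87 CPM (0.719), and the skeletal muscle markers summed to 722 CPM against 9.60 to 24.1 CPM (0.787). Tgfbr2 was low in oxaliplatin replicate 2, at 13.2 CPM against 17.9 to 20.2 CPM (0.717). Itgb1 was low in oxaliplatin replicate 3, at 81.9 CPM against 93.7 to 97.4 CPM (0.778), and in vehicle replicate 3, at 85.8 CPM against 95.0 to 97.3 CPM (0.815). The adipocyte markers of oxaliplatin replicate 1 were just inside the limit on the log2 scale (0.7095) and past it on the CPM scale (0.953).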

How the results depend on the processing

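Among 589 values of 31 named genes under the alternatives, 515 kept their sign and their side of the threshold, 25 crossed it downwards, 25 crossed it upwards and 24 turned sign; the cause was not tested. Log2 fold changes turned sign for Col1a1 (-0.50 to 0.048 when each library was left out), Col1a2 (-0.31 to 0.034), Col3a1 (-0.35 to 0.12), Col8a1 (-0.12 to 0.094), P4hb (-0.015 to 0.04), Timp2 (-0.071 to 0.012) and Itgb1 (-0.048 to 0.022). The turns of Col1a1 and Col1a2 came without oxaliplatin replicate 1, and those of Col3a1 without oxaliplatin replicate 1 or 4 or vehicle replicate 2. Without oxaliplatin replicate 1 and vehicle replicate 5 together, Col1a1 was at 0.10, Col1a2 at 0.067, Col3a1 at 0.15 and Col6a3 at 0.016, and without oxaliplatin replicates 1 and 2 Col8a1 was at -0.098. With no composition factor, which moved the median of all genes to 0.039, Timp2 was at 0.0088 and Itgb1 at 0.013.

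Counts of calls moved more. Over all genes, higher and lower calls were 521 and 412 in DESeq2, 439 and 365 in limma voom, 424 and 304 at a threshold of 0.1, 142 and 76 without oxaliplatin replicate 1 and vehicle replicate 5, 186 and 88 without oxaliplatin replicates 1 and 2, and 79 to 343 and 34 to 251 when each library was left out. Collagen calls were 3 higher in DESeq2, 2 in limma voom, 1 with no composition factor (Col6a1, adjusted p = 0.0459), 1 at 0.1, 2 without oxaliplatin replicate 1 and vehicle replicate 5, 1 higher and 1 lower without oxaliplatin replicates 1 and 2, and 0 to 2 higher and 0 to 1 lower when each library was left out. Pathway calls were 5 higher and 2 lower in DESeq2, 2 lower in limma voom, 4 higher at 0.1, 1 higher and 0 lower without oxaliplatin replicate 1 and vehicle replicate 5, 0 lower without oxaliplatin replicates 1 and 2, and 0 to 4 higher and 0 to 3 lower when each library was left out.

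Same-numbered libraries had correlations of their deviations of 0.0917, -0.0379, 0.212, -0.0176 and 0.145, against -0.147 to 0.0812 in the 20 different-numbered pairs. In each group 3 of 5 libraries correlated best with their own number, a hint from the data and not from the design. Since not every pair was above 0.1, the numbers were not taken to pair the samples. With the replicate number as a block, edgeR called 382 genes higher and 278 lower, among them 2 collagens higher, Col6a1 (adjusted p = 0.00445) and Col6a2 (0.0249), and Col8a1 was at -0.0018.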
